A study of Homo sapiens with 24 samples.

Results

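The comparison described here set HT-144 melanoma cells transfected with ASO-SREBF1-S1 (S1 below), an antisense oligonucleotide (ASO) against the SREBF1 transcript, against HT-144 cells transfected with the non-targeting ASO-Neg. It was chosen by sample title and took in 8 of the series' 24 lane files, 4 for S1 and 4 for ASO-Neg. HT-144 is an established human melanoma line derived from a metastatic site. Each ASO was transfected at 5 nM for 3 days. The other groups were a second SREBF1 ASO at 5 nM (ASO-SREBF1-S4, S4 below), an siRNA pool against SREBF1 at 50 nM (siSREBF1), a non-targeting siRNA at 50 nM (siNegative) and a mock transfection with neither. All groups were 1 cell line, grown in a medium supplemented with insulin, transferrin and selenium, so no difference between cell lines was sampled. The 4 files of a group were sequencing lanes of 1 library, which made n = 1 per group.

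SREBF1 encodes SREBP1, a membrane-bound transcription factor whose cleaved form enters the nucleus and activates genes of fatty acid synthesis, while the related SREBP2 mainly activates genes of cholesterol synthesis and uptake. Melanoma cells, like many cancer cells, make part of their own fatty acids. Antisense oligonucleotides pair with RNA and, in the common gapmer design, recruit RNase H1, which works in the nucleus as well as the cytoplasm, so introns of unspliced RNA can be bound as well as exons. The chemistry and the sequence of S1 were not given in the sources used here.

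The S1 library held 47900277 counts in genes, 2.75 times the 17415823 of ASO-Neg, and the other 4 libraries held 12916478 to 20014261. Levels are given as CPM, the count relative to the library's total, scaled by TMM, an edgeR scaling over genes. With 1 library per group there is no test between S1 and ASO-Neg, so a gene was called by size alone: at least 2-fold, with 10 CPM in at least 1 of the 2 libraries. Intervals are 95% and cover counting error only. Tests came from a second comparison, which used edgeR's quasi-likelihood fit over all 6 libraries, with S1 as 1 class, S4 and siSREBF1 as another, and ASO-Neg, siNegative and mock as the controls. In that fit S1 is assumed to vary like the other libraries, and its p-values reflect nothing but the scatter among the 3 controls and between S4 and siSREBF1, each given its own reagent. The 25 pigment lineage genes summed to 7930 CPM in S1 and 7600 CPM in ASO-Neg, with 5 of them under 1 CPM in every library. MITF, the regulator of that lineage, had 491 CPM in S1 and 467 CPM in ASO-Neg. The 10 immune cell markers summed to 0.892 CPM in S1 and 1.24 CPM in ASO-Neg, with CD3D, MS4A1 and NKG7 among those at 0 in every library. The 10 fibroblast markers summed to 702 CPM in S1 and to 734 to 949 CPM in the controls. The 10 keratinocyte markers summed to 23.6 CPM in S1 and to 24.7 to 26.1 CPM in the controls. The 8 endothelial markers summed to 58.8 CPM in S1 and to 38.9 to 43.0 CPM in the controls, with CLDN5 at 0 in every library, and the part of other cells in any result was not tested.

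SREBF1 was reported first as the targeted gene (ENSG00000072310, GRCh38 chromosome 17, 17810399 to 17837002). It had 77.0 CPM in S1, against 217 CPM in ASO-Neg, 249 CPM in siNegative and 232 CPM in mock. The 4 lanes of S1 spanned 75.9 to 78.1 CPM and the 4 lanes of ASO-Neg 198 to 225 CPM, a spread within 1 library each. The ASO-Neg lane at 198 CPM lay apart from the others and is flagged below. The S1 library thus kept 35.4% of the ASO-Neg level (log2 ratio -1.50, interval -1.56 to -1.43) and 33.3% of the mock level. Against the 3 controls SREBF1 fell by 1.59 on the log2 scale (SE 0.14, edgeR adjusted p = 0.00118). The other reagents left 70.2 CPM in S4 and 54.8 CPM in siSREBF1, and S1 did not pass the test against them (log2 difference 0.30, SE 0.14, edgeR adjusted p = 0.362). SREBF2, which encodes SREBP2, had 509 CPM in S1 and 592 CPM in ASO-Neg and did not pass (log2 difference from the controls -0.20, SE 0.09, edgeR adjusted p = 0.41).

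Beyond its target, S1 had 2 groups of changed genes. Of 9765 genes with 10 CPM in 1 of the 2 libraries, 32 were at least 2-fold lower over ASO-Neg (0.328%) and 15 were at least 2-fold higher (0.154%). Against mock the counts were 36 lower (0.367%) and 18 higher (0.183%) of 9814 genes, and against siNegative, a comparison chosen after seeing the data, 75 lower and 18 higher. Of the 32 lower genes, 26 were also at least 2-fold lower over mock. All 32 lay below all 3 controls, beside 29.9% of all genes tested. Of the 15 higher genes, 9 were also at least 2-fold higher over mock. Of the same 15, 11 lay above all 3 controls, beside 36.1% of all genes tested. Both groups were picked by the S1 and ASO-Neg libraries, so their place beyond the controls was partly given in advance. In edgeR's test against the 3 controls, 84 of 16297 genes fell (0.515%) and 36 rose (0.221%) at an adjusted p of 0.05, with 2067 genes at an unadjusted p under 0.05. The count depends on single control libraries. Without ASO-Neg it was 45 lower and 16 higher, without siNegative 32 lower and 7 higher, and without mock 45 lower and 10 higher. Without S4 there were 521 lower and 347 higher, and without siSREBF1 528 lower and 347 higher. Just inside the 2-fold limit over ASO-Neg lay TMEM175 at a log2 ratio of -1.02, and just outside it SMYD3 at -0.99.

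**Figure D1:**
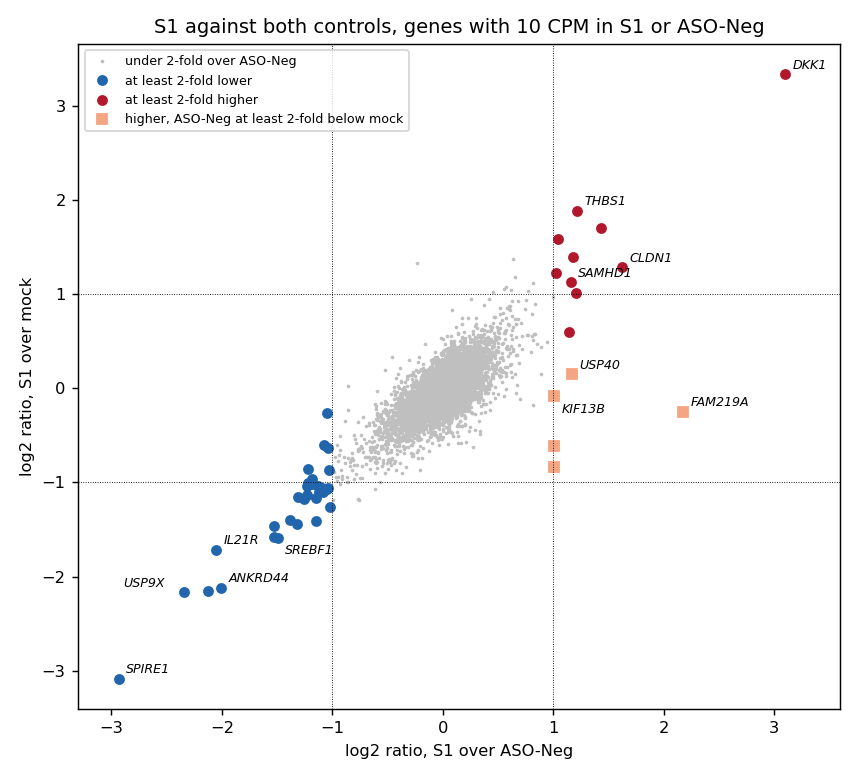
Log2 ratio of S1 over ASO-Neg (horizontal) and S1 over mock (vertical) for each gene with 10 CPM in S1 or ASO-Neg, 1 library per group, with dotted lines at 2-fold. The genes at least 2-fold lower lie below 0 on both axes, while 5 of the 15 higher genes (squares, FAM219A among them) lie near or below 0 over mock.

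SPIRE1, which encodes a nucleator of actin filaments (chromosome 18, 12446512 to 12658107), had the deepest fall. It had 7.53 CPM in S1, against 58.2 CPM in ASO-Neg, 53.5 CPM in siNegative and 64.5 CPM in mock. S4 (47.9 CPM) and siSREBF1 (58.2 CPM) lay near the controls, so S1 stood alone below the other 5 libraries. It kept 12.9% of the ASO-Neg level (log2 ratio -2.93, interval -3.13 to -2.77) and fell against the controls by 2.96 on the log2 scale (SE 0.16, edgeR adjusted p = 3.93e-05). SPIRE2, the paralog, had 8.38 CPM in S1 and 8.07 CPM in ASO-Neg (edgeR adjusted p = 0.913).

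USP9X, which encodes an X-linked deubiquitinase (chromosome X, 41085445 to 41236579), came next. It had 34.9 CPM in S1, against 178 CPM in ASO-Neg, 164 CPM in siNegative and 157 CPM in mock. Here too S4 (155 CPM) and siSREBF1 (158 CPM) were at the level of mock. S1 kept 19.7% of the ASO-Neg level (log2 ratio -2.34, interval -2.43 to -2.26), and the fall against the controls was -2.25 on the log2 scale (SE 0.11, edgeR adjusted p = 3.03e-05). Among the 40 USP deubiquitinases in the fit USP9X was the 1 gene that passed.

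NUP50-DT, a long noncoding RNA transcribed away from the nuclear pore gene NUP50, had 2.49 CPM in S1 and 11.2 CPM in ASO-Neg. NUP50 itself had 165 CPM in S1 and 148 CPM in ASO-Neg, so the neighbours did not move together. NUP50-DT fell by 2.14 on the log2 scale against the controls (SE 0.18, edgeR adjusted p = 0.000913), and NUP50 did not pass (log2 difference 0.23, edgeR adjusted p = 0.463). ANKRD44, a regulatory subunit of protein phosphatase 6, had 6.51 CPM in S1 and 26.4 CPM in ASO-Neg. ENPP2, the secreted enzyme autotaxin that makes lysophosphatidic acid, had 7.05 CPM in S1 and 20.5 CPM in ASO-Neg. SLC35F1, a solute carrier family member, had 22.7 CPM in S1 and 65.9 CPM in ASO-Neg. With S4 and siSREBF1, ANKRD44 had 18.0 and 21.9 CPM, ENPP2 19.8 and 19.0 CPM and SLC35F1 40.9 and 48.1 CPM. These levels lay above S1 but also below all 3 controls, for ENPP2 by little. These last 3 genes fell against the controls (edgeR adjusted p = 0.000413 for ANKRD44, 0.0034 for ENPP2 and 0.000544 for SLC35F1) and were lower than with S4 and siSREBF1 as well.

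Most of the other deep falls also set S1 apart. SEC31B, a COPII vesicle coat protein, had 4.31 CPM in S1 and 11.4 CPM in ASO-Neg. IGSF3, an immunoglobulin superfamily membrane protein, had 66.6 CPM in S1 and 157 CPM in ASO-Neg. ITGA4, the integrin alpha 4 chain, had 52.9 CPM in S1 and 122 CPM in ASO-Neg. In each of these S1 was the lowest of the 6 libraries. ANKRD17, an ankyrin repeat protein, PAPLN, a matrix protein, FREM2, a basement membrane protein, FBXL4, an F-box protein of mitochondria, DNAH9, an axonemal dynein, and OSBPL5, an oxysterol-binding protein relative, had log2 ratios of S1 over ASO-Neg between -1.31 for ANKRD17 and -1.15 for OSBPL5. Each of them fell in edgeR, with adjusted p from 0.000913 for ANKRD17 to 0.025 for DNAH9. Leaving out 1 control ended the call for FREM2, FBXL4 and DNAH9, with adjusted p between 0.07 and 0.117 in the fits that lost it. CDH13, which encodes T-cadherin, had 15.4 CPM in S1 and 38.6 CPM in ASO-Neg but 17.5 CPM in S4, and did not pass against the controls (edgeR adjusted p = 0.216). OLFML3, a secreted olfactomedin-domain protein, had 28.6 CPM in S1 and 67.3 CPM in ASO-Neg and did not pass (edgeR adjusted p = 0.0735).

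IL21R and TSC22D3 had lower levels in each of the 3 SREBF1-targeting libraries than in any control library. IL21R, a cytokine receptor chain (chromosome 16, 27402174 to 27452042), had 5.14 CPM in S1, 8.10 CPM in S4 and 4.24 CPM in siSREBF1, against 21.6 CPM in ASO-Neg, 17.7 CPM in siNegative and 17.1 CPM in mock. The targeting libraries and the controls did not overlap. S1 kept 23.8% of the ASO-Neg level (log2 ratio -2.05, interval -2.31 to -1.84). It fell against the controls by 1.87 on the log2 scale (SE 0.27, edgeR adjusted p = 0.0124) and did not pass against S4 and siSREBF1 (log2 difference -0.28, SE 0.29, edgeR adjusted p = 0.706). Without ASO-Neg or without siNegative the IL21R call against the controls was lost (edgeR adjusted p from 0.0577 to 0.0636). TSC22D3, the glucocorticoid-induced leucine zipper, had 7.03 CPM in S1, 9.75 CPM in S4 and 6.32 CPM in siSREBF1, against 16.5 CPM in ASO-Neg. It fell against the controls (edgeR adjusted p = 0.0368), a call that was lost without any 1 of them (0.0931 to 0.176).

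**Figure D2:**
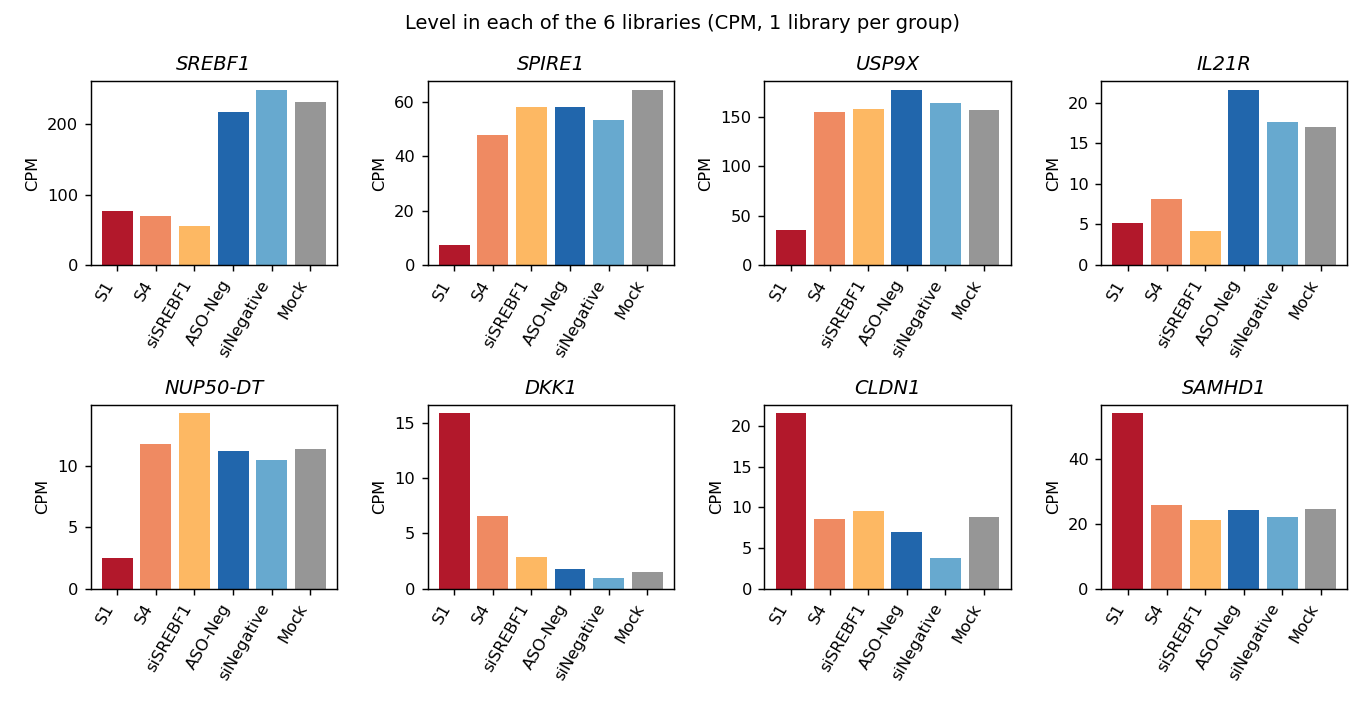
Level in CPM of 8 genes in the 6 libraries (bars, 1 library each; axes start at 0). SREBF1 and IL21R are low in S1, S4 and siSREBF1, whereas SPIRE1, USP9X and NUP50-DT are low and SAMHD1 high in S1. CLDN1 is highest in S1, but its difference from S4 and siSREBF1 did not pass in edgeR.

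DKK1, a secreted inhibitor of Wnt signalling (chromosome 10, 52314281 to 52318042), had the largest rise. It had 15.9 CPM in S1 (766 counts), against 1.77 CPM in ASO-Neg (30 counts), 0.961 CPM in siNegative and 1.49 CPM in mock. The lanes of S1 spanned 15.0 to 16.4 CPM and those of ASO-Neg 0.928 to 2.79 CPM. S4 (6.62 CPM) and siSREBF1 (2.90 CPM) lay between S1 and the controls. The log2 ratio of S1 over ASO-Neg was 3.10 (interval 2.64 to 3.75), and the rise against the controls was 3.52 (SE 0.34, edgeR adjusted p = 0.00174). S1 was also higher than the other SREBF1 reagents (log2 difference 1.71, SE 0.33, edgeR adjusted p = 0.0456), a call that was lost without any 1 of the controls (adjusted p 0.0746 to 0.105). KREMEN1, a receptor for DKK proteins, went the other way, with 45.8 CPM in S1 and 97.4 CPM in ASO-Neg (log2 difference from the controls -1.12, SE 0.12, edgeR adjusted p = 0.00236). DKK3, a divergent family member, had 36.3 CPM in S1 and 31.0 CPM in ASO-Neg (edgeR adjusted p = 0.854).

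SAMHD1, a dNTP hydrolase that limits viral replication, had 54.1 CPM in S1, against 24.2 CPM in ASO-Neg and 21.4 to 25.8 CPM in the other 4 libraries. It rose by 1.20 on the log2 scale against the controls (SE 0.12, edgeR adjusted p = 0.00193) and stood above S4 and siSREBF1 (log2 difference 1.19, SE 0.13, edgeR adjusted p = 0.00471). IFI6, an interferon-induced protein of the endoplasmic reticulum and mitochondria, had 38.8 CPM in S1 and 16.8 CPM in ASO-Neg (edgeR adjusted p = 0.0169, and 0.0786 to 0.0967 in the fits without ASO-Neg or siNegative). CLDN1, a tight junction claudin, had 21.6 CPM in S1 and 6.95 CPM in ASO-Neg (log2 difference from the controls 1.77, SE 0.28, edgeR adjusted p = 0.0197, and 0.0827 without ASO-Neg). With S4 and siSREBF1, CLDN1 had 8.53 and 9.52 CPM, and the difference of S1 from them did not pass (log2 difference 1.26, SE 0.30). THBS1, the matricellular protein thrombospondin 1, had 163 CPM in S1, 108 CPM in S4 and 68.5 CPM in siSREBF1, against 69.8 CPM in ASO-Neg, 56.6 CPM in siNegative and 43.9 CPM in mock. THBS1 rose by 1.51 on the log2 scale against the controls (SE 0.23, edgeR adjusted p = 0.0169, and 0.0605 to 0.0967 without mock or siNegative), and its difference from S4 and siSREBF1 did not pass (edgeR adjusted p = 0.141). DEPDC7, a DEP domain protein, CCN1, a matricellular protein, and ADM2, a secreted peptide of the calcitonin family, also rose (edgeR adjusted p = 0.00693, 0.0405 and 0.00976), of which CCN1 lost the call without any 1 control and ADM2 without mock or siNegative. IL24, a cytokine, and SPTBN5, a spectrin, were 2-fold over ASO-Neg and did not pass in edgeR (adjusted p = 0.0989 and 0.0762).

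For 5 of the 15 higher genes the ratio rested on a low ASO-Neg library, which was itself at least 2-fold below mock for 8 of 9769 genes (0.0819%) and at least 2-fold above it for 1 (0.0102%). FAM219A had 12.8 CPM in S1 and 2.77 CPM in ASO-Neg, but 15.3 CPM in mock and 15.99 CPM in siNegative. USP40, a deubiquitinase, had 37.2 CPM in S1 and 16.5 CPM in ASO-Neg, but 33.4 CPM in mock. KIF13B, a kinesin motor, had 50.5 CPM in S1 and 25.02 CPM in ASO-Neg, but 53.6 CPM in mock. The unnamed genes ENSG00000234961 and ENSG00000269968 also had less in ASO-Neg (7.48 and 10.4 CPM) than in S1 (15.2 and 20.9 CPM), mock or siNegative. None of these 5 passed in edgeR against the controls (adjusted p 0.715 to 0.938), and over mock their log2 ratios lay between -0.83 and 0.15.

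The lower genes were compared with SREBF1 for shared sequence, since an ASO can pair with any transcript that holds its site. The 40 genes that edgeR called lower both against the controls and against S4 and siSREBF1 were searched for every 11- to 14-base word of SREBF1 on the transcribed strand, introns included. Only words found in at least 5 of these genes were ranked. The ranked word with the highest share in these genes relative to all genes lay in the same 16-base window of a coding exon of SREBF1 at each of the 4 lengths (chr17:17818351-17818366, minus strand, GRCh38). These 4 words overlap, so they are not separate findings. Because the window was picked from the values of these genes, what follows is a description with no test. CSNK1G3, also among the 40 and with a 13-base match in a UTR, is not shown (log2 ratio of S1 over ASO-Neg -0.62). The stretches are shown in transcript sense, 5′ to 3′, with 30 bases each and the bases that match the window in capitals.
SREBF1, coding exon, chr17:17818344-17818373, minus strand: tgaataaATCTGCTGTCTTGCGCaaggcca
SPIRE1, intron, chr18:12456594-12456623, minus strand: tggtaccATCTGCTGTCTTGCtagcacaaa
USP9X, intron, chrX:41200462-41200491, plus strand: atcacaaATCTGCTGTCTTGCttgctcctc
ANKRD17, intron, chr4:73244568-73244597, minus strand: tctaagtATCTGCTGTCTTGCacttgatac
MARK3, intron, chr14:103415525-103415554, plus strand: tagttgcATCTGCTGTCTTGCttttgacca
OSBPL10, intron, chr3:31787680-31787709, minus strand: gtctttgATCTGCTGTCTTGCtgatcaaca
ITGA4, coding exon, chr2:181495392-181495421, plus strand: ggtctgatTCTGCTGTCTTGCtaaggtaag
AGAP1, intron, chr2:236030333-236030362, plus strand: gatctaaATCTGCTGTCTTGtttgcagtgt
KREMEN1, intron, chr22:29087163-29087192, plus strand: atatgttcTCTGCTGTCTTGCtttaagatg

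A match of 14 bases was in the span of 8 of 16214 genes other than SREBF1, and 5 of the 40 lower genes were among them: SPIRE1, USP9X, ANKRD17, MARK3 and OSBPL10. The median log2 ratio of S1 over ASO-Neg was -1.32 for these 8 genes, -0.33 for 54 genes with a longest match of 13 bases, -0.12 for 399 with 12 bases, -0.05 for 1496 with 11 bases and 0.03 for 14257 with 10 or fewer. The order was the same over mock (-1.11, -0.33, -0.12, -0.05 and 0.01). With S4 over ASO-Neg, which shares the control library, the medians of the same groups were -0.28, -0.05, 0.01, -0.02 and 0.02, and with siSREBF1 over siNegative 0.12, 0.06, 0.00, -0.02 and 0.00. The percentage of genes that edgeR called lower was 62.5% at 14 bases, 9.26% at 13, 3.51% at 12, 1.07% at 11 and 0.302% at 10 or fewer. Of 62 genes with 13 or more matching bases, 52 lay below 0 in S1 over ASO-Neg. With 10 CPM in S1 or ASO-Neg, 36 of 41 did, beside 47.7% of all genes tested. The window was picked from the 40 lower genes, so their part in these medians and shares was given in advance. Outside the 40 there were 53 genes with 13 or more bases, of which 43 lay below 0, with a median of -0.305. On the opposite strand, 49 genes had 13 or more matching bases, with a median of 0.00, and 23 lay below 0.

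The match went with a fall, though not for every carrier. All 6 carriers of 14 bases with 10 CPM in S1 or ASO-Neg were at least 2-fold lower. Of these, 5 were among the genes from which the window was picked, and CDH13, the other, was low with S4 too. Of the 64 sites of 13 or more bases, 56 lay in introns. CSNK1G3, a casein kinase with its 13-base match in a UTR, had 44.1 CPM in S1 and 67.8 CPM in ASO-Neg and fell against the controls (log2 difference -0.55, SE 0.10, edgeR adjusted p = 0.0405). Of the 40 lower genes 31 had 12 or fewer matching bases, with a median log2 ratio of -1.03. NUP50-DT, ANKRD44, ENPP2 and most others thus had no match of 13 or more bases, and shorter matches were not excluded for them. The 8 genes with 14 bases are also long, with a median span of 198510 bases against 23433 for genes with 10 or fewer. The sequence of S1 was not given, and whether this stretch is its site was not tested. MARK3, a protein kinase, AGAP1, an Arf GTPase regulator, OSBPL10, an oxysterol-binding protein relative, and CSNK1G3 are named for their match, after their values were seen.

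**Figure D3:**
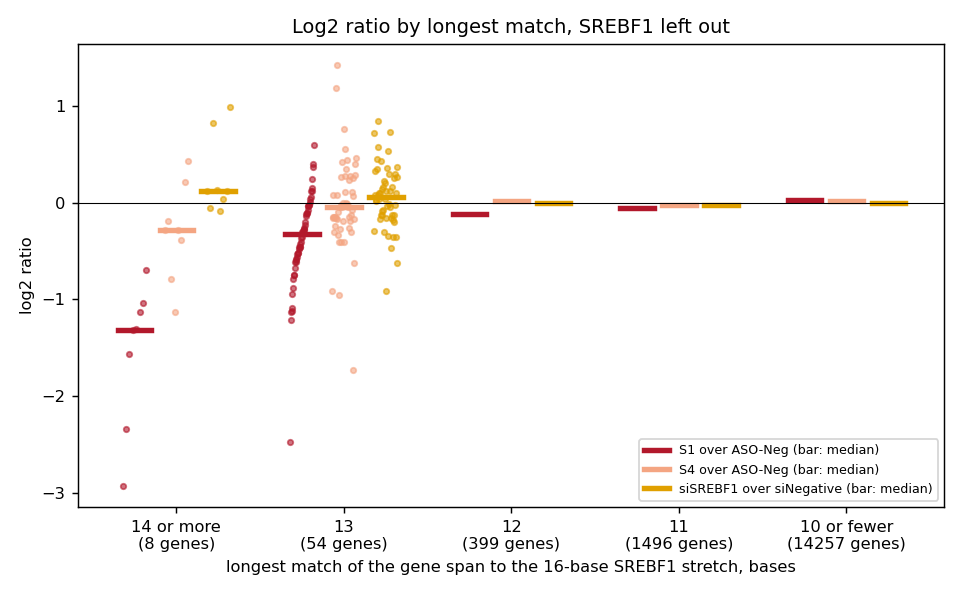
Log2 ratio by the longest match between a gene's transcribed strand and the 16-base SREBF1 window, with SREBF1 left out. Bars are medians for S1 over ASO-Neg, S4 over ASO-Neg and siSREBF1 over siNegative, and points are single genes with 13 or more matching bases. The S1 median is -1.32 at 14 bases and 0.03 at 10 or fewer. The window was picked from lowered genes, which include 5 of the 8 genes with 14 bases.

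Lowered genes tended to be long. Their median span was 120210 bases for the 32 genes at least 2-fold lower over ASO-Neg, against 16740 for the 15 higher and 35737 for all genes with 10 CPM. The share of genes at least 2-fold lower in S1 was 0 of 1631 genes under 10 kb, 0.0733% from 10 to 30 kb, 0.357% from 30 to 100 kb, 0.598% from 100 to 300 kb and 2.2% over 300 kb. Genes over 300 kb also had a lower median log2 ratio, at -0.15 in S1 over ASO-Neg and -0.12 over mock. This was not seen in S1 alone: with S4 over ASO-Neg the shares of the same genes were 0.0613% under 10 kb and 1.37% over 300 kb. With siSREBF1 over siNegative they were 0.123% and 0.824%. With 10 CPM asked of their own pairs of libraries, S4 had 27 lower (0.274%) and 42 higher genes (0.427%), and siSREBF1 had 21 lower (0.213%) and 29 higher genes (0.294%). By type, 31 of the 32 lower and 13 of the 15 higher genes were protein coding, beside 97.2% of all genes with 10 CPM in S1 or ASO-Neg.

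**Figure D4:**
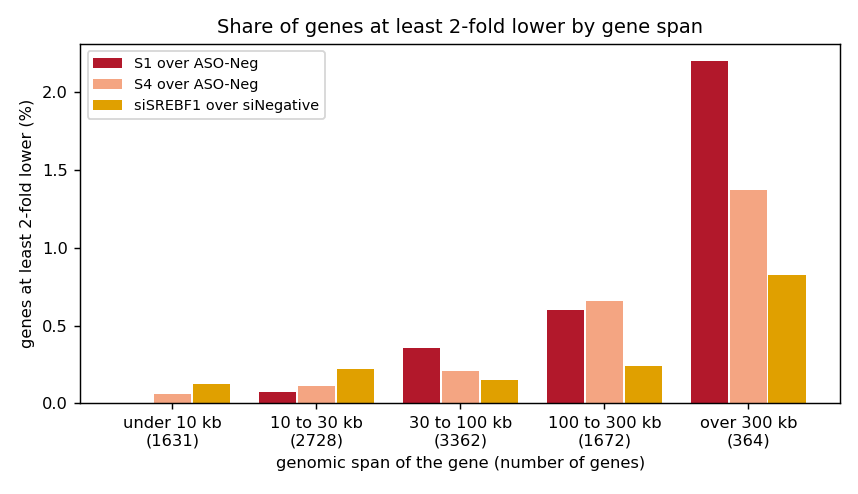
Percentage of genes at least 2-fold lower, by genomic span of the gene, for S1 over ASO-Neg, S4 over ASO-Neg and siSREBF1 over siNegative (genes with 10 CPM in S1 or ASO-Neg, number in parentheses). In S1 the share is 0% under 10 kb and 2.2% over 300 kb.

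Of the genes of fatty acid synthesis, 4 fell in S1, each by less than 2-fold and each with a call that rested on all 3 controls. Of 23 list members with 10 CPM, 19 lay below 0 over ASO-Neg and 16 lay below all 3 controls, where 47.7% of all genes tested lay below 0 and 29.9% below all controls. The list's median log2 ratio was -0.34 over ASO-Neg and -0.29 over mock, beside 0.01 and 0.02 for all genes tested. In edgeR 4 of 25 members fell, beside 0.515% of all genes in the fit, and none rose. SCD, the desaturase of saturated fatty acids, had 2342 CPM in S1, 2313 CPM in S4 and 1951 CPM in siSREBF1, against 4131 CPM in ASO-Neg, 3916 CPM in siNegative and 4283 CPM in mock. All 3 targeting libraries lay below all 3 controls, and S1 kept 56.7% of the ASO-Neg level. SCD fell against the controls by 0.81 on the log2 scale (SE 0.13, edgeR adjusted p = 0.0216).

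ACSS2, which makes acetyl-CoA from acetate, had 323 CPM in S1 and 537 CPM in ASO-Neg (edgeR adjusted p = 0.0197). ACSL1, which activates long-chain fatty acids, had 230 CPM in S1 and 363 CPM in ASO-Neg (edgeR adjusted p = 0.0221). ME1, a malic enzyme that supplies NADPH, had 92.5 CPM in S1 and 139 CPM in ASO-Neg (edgeR adjusted p = 0.048). Each of these calls, SCD's included, was lost in edgeR without any 1 of the controls, with adjusted p between 0.0641 for ACSS2 and 0.24 for ME1. ACACA, the carboxylase that makes malonyl-CoA, had 198 CPM in S1 and 291 CPM in ASO-Neg and did not pass (edgeR adjusted p = 0.108). FADS1, a fatty acid desaturase, had 275 CPM in S1 and 381 CPM in ASO-Neg and did not pass either (edgeR adjusted p = 0.177). FABP7, a fatty acid binding protein of neural crest lineage cells, had 33.8 CPM in S1, 27.2 CPM in S4 and 26.04 CPM in siSREBF1, against 65.8 CPM in ASO-Neg, and fell (log2 difference from the controls -0.91, edgeR adjusted p = 0.00519). None of the fatty acid synthesis genes differed past the threshold between S1 and the other SREBF1 reagents. The list's median was -0.27 in S4 over ASO-Neg and -0.35 in siSREBF1 over siNegative.

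Genes of cholesterol synthesis showed little change. Of 22 members 14 lay below 0 and 8 above, none was 2-fold, and none passed in edgeR in either direction. The median log2 ratio was -0.06 over ASO-Neg and -0.04 over mock. Of all genes tested, 47.7% lay below 0 over ASO-Neg and 29.9% below all 3 controls. DHCR7, the last enzyme of the pathway, had 245 CPM in S1 and 319 CPM in ASO-Neg (edgeR adjusted p = 0.161), and HMGCS1, an early enzyme, had 1337 CPM in S1 and 1582 CPM in ASO-Neg (edgeR adjusted p = 0.723). In the list of sterol uptake and SREBP control, 13 of 18 members lay below all 3 controls, the median was -0.17 over ASO-Neg and -0.19 over mock, and 1 of 19 members, SREBF1, passed. INSIG1, which retains SREBPs in the endoplasmic reticulum, had 381 CPM in S1 and 585 CPM in ASO-Neg (edgeR adjusted p = 0.128).

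Promoters of these lists were searched on both strands for the sterol regulatory element TCACNCCAC, the E-box CACGTG and the CCAAT box CCAAT, in RefSeq's 300 bases around each gene start (GRCh38.p14). CCAAT was in a promoter of 17 of 24 matched fatty acid synthesis genes (70.8%) and of 14 of 17 cholesterol synthesis genes (82.4%), beside 39.7% of all 27305 genes. It was in 9 of 24 matched genes that were 2-fold lower with S1 (37.5%). TCACNCCAC was in a promoter of 2 fatty acid synthesis genes (8.33%, beside 1.39% of all genes), ACSL1 and MID1IP1, and of no cholesterol synthesis gene. CACGTG was in a promoter of 1 fatty acid gene (4.17%) and 2 cholesterol genes (11.8%), beside 8.77% of all genes. The promoter of SCD, the most abundant of the called fatty acid genes, is shown with its CCAAT boxes in capitals, and 1 of the promoters of ACSL1 with its match to TCACNCCAC (read from the other strand) in capitals.
SCD, chr10:100346983-100347282, plus strand: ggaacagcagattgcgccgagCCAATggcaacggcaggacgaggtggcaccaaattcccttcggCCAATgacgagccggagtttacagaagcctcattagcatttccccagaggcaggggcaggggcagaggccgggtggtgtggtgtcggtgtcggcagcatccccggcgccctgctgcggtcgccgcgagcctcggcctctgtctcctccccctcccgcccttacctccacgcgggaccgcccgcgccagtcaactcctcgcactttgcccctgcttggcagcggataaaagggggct
ACSL1, chr4:184805504-184805803, minus strand: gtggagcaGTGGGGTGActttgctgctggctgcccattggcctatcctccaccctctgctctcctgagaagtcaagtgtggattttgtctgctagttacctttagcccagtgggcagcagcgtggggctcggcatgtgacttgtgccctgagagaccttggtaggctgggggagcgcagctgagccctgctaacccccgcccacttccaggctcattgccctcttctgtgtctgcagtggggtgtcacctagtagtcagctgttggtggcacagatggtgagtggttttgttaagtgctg

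Among lists outside lipid metabolism, AP-1 and YAP targets had the highest median of those with at least 3 members at 10 CPM, at 0.52 over ASO-Neg and 0.42 over mock, beside 0.01 and 0.02 for all genes tested. Of 20 members with 10 CPM, 17 lay above 0 and 15 above all 3 controls, where 36.1% of all genes tested lay above all controls. In edgeR 4 of 22 members rose, beside 0.221% of all genes in the fit. Besides CCN1, described above, these included EGR1, an immediate early transcription factor, with 29.9 CPM in S1, 29.1 CPM in S4 and 25.2 CPM in siSREBF1 against 16.7 CPM in ASO-Neg (edgeR adjusted p = 0.0173), and AMOTL2, an angiomotin family scaffold, with 43.0 CPM in S1 and 28.1 CPM in ASO-Neg (edgeR adjusted p = 0.037). Leaving out mock or siNegative ended the EGR1 call (0.0612 to 0.0659), and leaving out any 1 control ended that of AMOTL2 (0.0951 to 0.143). The list's median was 0.22 in S4 over ASO-Neg and 0.11 in siSREBF1 over siNegative.

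Genes of the ATF4 amino acid stress response had a median of 0.23 over ASO-Neg and 0.37 over mock, with 22 of 28 members above all 3 controls, where 36.1% of all genes tested lay above them. In edgeR 4 of 30 members rose, beside 0.221% of all genes in the fit, among them ATF5, a transcription factor of the response, with 27.3 CPM in S1 and 17.3 CPM in ASO-Neg (edgeR adjusted p = 0.0212), and SESN2, a leucine sensor of mTORC1, with 24.1 CPM in S1 and 15.7 CPM in ASO-Neg (edgeR adjusted p = 0.0358). ATF3 also rose (27.6 CPM in S1 and 18.3 CPM in ASO-Neg, edgeR adjusted p = 0.0497). All 3 lost the call in fits without 1 control (adjusted p 0.0856 to 0.279). The list's median in S4 over ASO-Neg was -0.15 and in siSREBF1 over siNegative 0.13. ATF5 was higher in S1 than with the other 2 reagents (log2 difference 0.82, SE 0.12, edgeR adjusted p = 0.0142, and 0.0505 without siNegative).

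Interferon-stimulated genes had a median of 0.19 over ASO-Neg and 0.20 over mock, with 17 of 23 members above all 3 controls, beside 36.1% of all genes tested. In edgeR 3 of 35 members rose, beside 0.221% of all genes in the fit. MX1, an antiviral GTPase, had 25.4 CPM in S1 and 16.9 CPM in ASO-Neg. It did not pass against the controls (edgeR adjusted p = 0.104) and was higher than with S4 and siSREBF1 (log2 difference 0.88, SE 0.16, edgeR adjusted p = 0.0342, and 0.0571 to 0.0931 without any 1 control). OAS1, which senses double-stranded RNA, had 20.8 CPM in S1 and 14.5 CPM in ASO-Neg (edgeR adjusted p = 0.0604). The list's median was 0.04 in S4 over ASO-Neg and -0.01 in siSREBF1 over siNegative.

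p53 targets had a median of 0.25 over ASO-Neg and 0.24 over mock and none passed in edgeR. CDKN1A, the cell cycle inhibitor p21, had 228 CPM in S1, 280 CPM in S4 and 174 CPM in siSREBF1, against 164 CPM in ASO-Neg (edgeR adjusted p = 0.382). NF-kB and inflammatory genes had a median of 0.22 over ASO-Neg and 0.08 over mock. In edgeR 1 of 24 of them rose, beside 0.221% of all genes in the fit. In the Wnt list the median was -0.13 over ASO-Neg and -0.11 over mock, 13 of 26 members lay below all 3 controls, and DKK1 and KREMEN1 were the members that passed. The G2/M list stood at -0.13 over ASO-Neg, with 24 of 25 members below 0, but at 0.01 over mock, and none of its members passed in edgeR. Transcripts of the mitochondrial genome had a median of -0.21 over ASO-Neg and -0.24 over mock, with 12 of 13 members below all 3 controls and none past the threshold. MT-ND4, a complex I subunit, had 9045 CPM in S1, against 11320 CPM in ASO-Neg, 10960 CPM in siNegative and 10910 CPM in mock (edgeR adjusted p = 0.394). Pigment lineage genes had a median of 0.08 over ASO-Neg and -0.13 over mock, so their direction followed the control. Beside the counts of members in these lists, 47.7% of all genes tested lay below 0 over ASO-Neg and 29.9% below all 3 controls. Of the remaining lists, 19 had at least 3 members with 10 CPM, and their medians over ASO-Neg lay between -0.16 and 0.14.

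**Figure D5:**
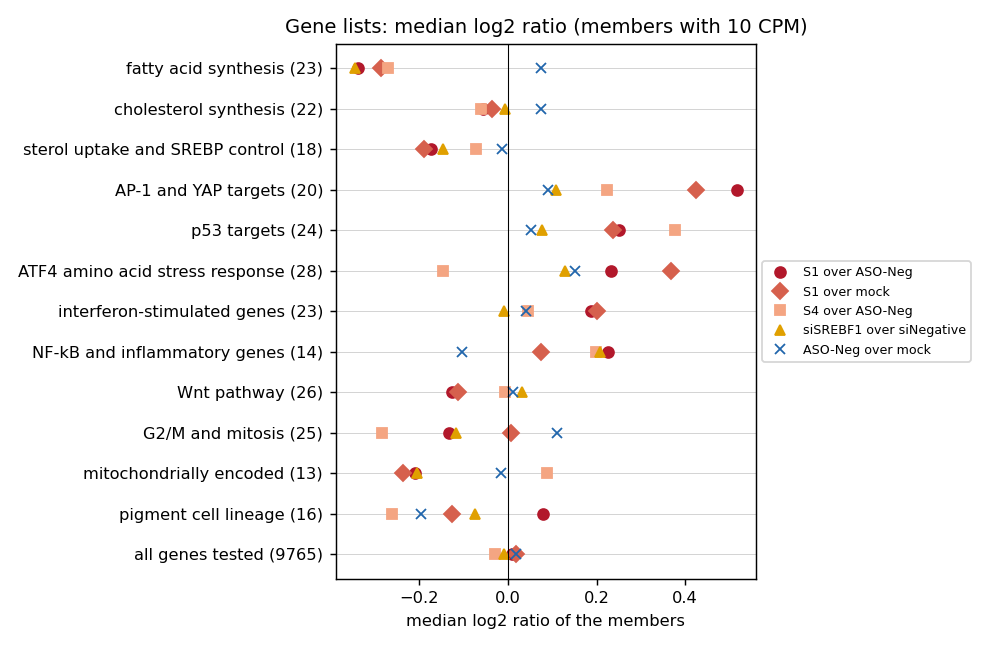
Median log2 ratio of the members of 12 gene lists and of all genes tested (number of members with 10 CPM in parentheses) for S1 over ASO-Neg, S1 over mock, S4 over ASO-Neg, siSREBF1 over siNegative and ASO-Neg over mock. Fatty acid synthesis lies at -0.34 in S1 over ASO-Neg and AP-1 and YAP targets at 0.52, beside 0.01 for all genes tested.

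The test of S1 against S4 and siSREBF1 asked which changes were not shared by reagents with the same target. It used the same S1 library as the test against the controls and the ratios over ASO-Neg. Scatter in that library moves all of them the same way, so overlaps between them are partly built in. In edgeR 119 genes were lower in S1 (0.73%) and 33 higher (0.202%) of 16297, with 2431 genes at an unadjusted p under 0.05. Without ASO-Neg there were 50 lower and 3 higher, without siNegative 57 and 5, and without mock 68 and 9. Without S4 there were 543 lower and 347 higher, and without siSREBF1 613 and 383. With S1 thinned to the median depth of the other libraries there were 67 lower and 15 higher. Of the 84 genes lower than the controls, 40 were also lower than with the other reagents (47.6%), which is 33.6% of the 119. Of the 36 genes higher than the controls, 11 were also higher than with the other reagents (30.6%). Among the genes at least 2-fold over ASO-Neg, 23 of 32 lower and 3 of 15 higher genes were past the threshold in this test, and SREBF1, IL21R, TSC22D3 and TMEM135 were among those that fell against the controls and did not pass here. Of the 32 lower genes, 3 were also at least 2-fold lower in S4 over ASO-Neg, beside 0.274% of all genes tested in that pair. In siSREBF1 over siNegative 4 of the 32 were, beside 0.213%. SREBF1, the target, was among them in both, and the S1 and S4 ratios share the ASO-Neg library.

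Some genes separated S1 from the other SREBF1 reagents without passing against the controls. MMP1, the collagenase, had 6.93 CPM in S1, against 27.2 CPM in S4 and 48.7 CPM in siSREBF1, with 10.01 CPM in ASO-Neg (log2 difference from S4 and siSREBF1 -2.44, SE 0.34, edgeR adjusted p = 0.0124). CA9, the hypoxia-induced carbonic anhydrase, had 15.2 CPM in S1, against 35.4 CPM in S4 and 50.7 CPM in siSREBF1, with 25.9 CPM in ASO-Neg (edgeR adjusted p = 0.0213). CDT1, a replication licensing factor, had 44.9 CPM in S1, against 18.8 CPM in S4 and 24.6 CPM in siSREBF1, with 29.5 CPM in ASO-Neg (edgeR adjusted p = 0.0136). TYRP1, an enzyme of melanin synthesis, had 180 CPM in S1, against 78.0 CPM in S4 and 89.0 CPM in siSREBF1, with 120 CPM in ASO-Neg (edgeR adjusted p = 0.0291, and 0.092 without ASO-Neg). For MMP1 the S1 library lay within the range of the controls, for CA9 it was the lowest of the 6 libraries, and for CDT1 and TYRP1 it was the highest.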

How the data were processed

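RNA of HT-144 cells was sequenced as strand-specific poly(A) libraries with read pairs of 75 bases, per the labels. The deposited values are raw counts per gene, 1 file per sequencing lane. Reads were checked with FastQC and aligned with STAR 2.6.1a to GRCh38, per the submitters' processing notes, while the sources used here do not state the gene annotation. Each file lists 58735 genes after 4 summary lines, which were left out. Of the gene IDs 58207 matched GENCODE release 44, used here for names, spans and introns, and these hold 99.93% of the counts.

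The reverse-strand count column was used, since the opposite strand held 6.47% to 7.79% of the counts. Lanes of a group differed by no more than sampling noise (chi-square over degrees of freedom 1.017 to 1.052, against 5.56 for a lane of S1 with a lane of ASO-Neg) and were summed, so each group was 1 library. Ratios are log2 values of CPM after TMM scaling, and 2 was the prior count. Tests used edgeR 4.0.16 (R 4.3.3), a quasi-likelihood fit of 16297 genes in 3 classes with 3 residual degrees of freedom, and p-values adjusted by Benjamini-Hochberg over all genes at 0.05. A count of 3 equals 0.0626 CPM in S1 and up to 0.2323 CPM in mock, which covers counting error only. On simulated data the fit called 42.3% of genes changed by 0.5 on the log2 scale, 98.4% of those changed by 1 and 100% of those changed by 2, with 12 false calls. The simulated libraries shared 1 relative level per gene and 1 coefficient of variation for all genes (0.0823), with no differences between reagents. Only genes above a minimum count were changed, and only in S1. The real classes mix reagents, so these rates do not give the power or error rate of the real fit. DESeq2 1.42.0 and limma 3.58.1 were alternatives, besides other scalings, filters, prior counts, strand settings, thinning of S1 and leaving out lanes or libraries.

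Genes were named by rule: the marker genes, genes at least 2-fold over ASO-Neg (the 20 largest falls and all rises), the 10 largest rises and falls in edgeR with a mean of at least 5 CPM, and up to 6 members per list with the largest ratio, with paralogs and neighbours. TMEM135, TMEM175, SMYD3, CSNK1G3, MARK3, AGAP1, OSBPL10, SNX29, STRN3 and PODXL fall outside it and were chosen after their values were seen. The members, lists and tests were chosen with earlier results of these data known. Some items are not reported here.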

Additional observations from a re-analysis of the deposited data

Results flagged for a closer look

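In the 4 lanes of ASO-Neg, SREBF1 had 1 lane at 198 CPM, apart from the others at 221 to 225 CPM. In the 4 lanes of S1, IL21R had 1 lane at 6.13 CPM, apart from the others at 4.69 to 4.90 CPM. Both gaps were past Dixon's 95% limit, which by its construction chance passes in about 1 in 20 groups.

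The difference of S1 from S4 and siSREBF1 passed edgeR's test for 35 named genes. Higher in S1 on the log2 scale were DKK1 by 1.71, SAMHD1 by 1.19, IFI6 by 1.17, TYRP1 by 1.11, CDT1 by 1.06, MX1 by 0.88 and ATF5 by 0.82. Lower in S1 were SPIRE1 (-2.81), MMP1 (-2.44), NUP50-DT (-2.38), USP9X (-2.16), DNAH9 (-1.78), MFAP3L (-1.69), SEC31B (-1.68), ANKRD44 (-1.61), CA9 (-1.50), ENPP2 (-1.46), FREM2 (-1.42) and OSBPL5 (-1.41). The other lower genes were PAPLN (-1.29), PODXL (-1.26), OSBPL10 (-1.22), STRN3 (-1.21), ITGA4 (-1.19), IGSF3 (-1.12), FBXL4 (-1.08), AGAP1 (-1.08), KREMEN1 (-1.07), ANKRD17 (-1.05), SNX29 (-1.03), TMEM175 (-1.0), SLC35F1 (-0.97), MARK3 (-0.97), SFRP1 (-0.80) and SERPINE2 (-0.80). Of these, 12 lost the call without 1 control or with S1 thinned, among them IFI6 (edgeR adjusted p 0.0515 to 0.092 where lost), MARK3 (0.0508 to 0.0673), FBXL4 (0.0615 to 0.0861), PODXL (0.0615 to 0.0938), SERPINE2 (0.0663 to 0.0746), SFRP1 (0.0503 to 0.0965), SNX29 (0.0547) and TMEM175 (0.0513 to 0.0581). The others that did were DKK1, MX1, ATF5 and TYRP1.

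The opposite-strand column entered no comparison above. Where 2 genes overlap on opposite strands, this column of 1 gene can hold the reads counted above for the other. Of 1312 genes with 10 CPM there, 9 were at least 2-fold higher and 4 lower in S1 over ASO-Neg. FSIP1 (log2 ratio 1.18) and TIMP3 (1.33) were the 2 higher genes above all 3 controls. FSIP1 had 11.2 CPM in S1 and 3.06 to 4.89 CPM in the controls. TIMP3 had 32.1 CPM in S1, but 31.6 CPM in mock beside 12.7 CPM in ASO-Neg. All 4 lower genes lay below all 3 controls: ENSG00000267199 (-3.04), IL21R-AS1 (-2.22), CERKL (-1.14) and ITGA9-AS1 (-1.01). On their own strand the log2 ratios were -1.105, 0.527, -0.033 and 0.772. IL21R-AS1, by name antisense to IL21R, was low here in the same libraries as IL21R (2.2 CPM in S1, 4.48 in S4, 2.53 in siSREBF1 and 10.6 in ASO-Neg). These 4 are therefore not counted as further lowered genes, and which of them repeat an overlapping gene was not tested.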

How the results depend on the processing

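No paired analysis was possible because the replicate numbers name sequencing lanes of 1 library per group. Of 46 named genes called against the controls, 26 kept the call under all 11 alternatives, and of 35 called against S4 and siSREBF1, 23 did. Calls were lost by leaving out a control or by thinning S1. The cause was not tested. Genes higher and lower against the controls numbered 65 and 216 with DESeq2, 72 and 156 with limma-voom, 309 and 380 with no filter on low counts, and 7 to 347 and 32 to 528 when 1 library was left out. Against S4 and siSREBF1 they numbered 82 and 244 with DESeq2, 63 and 206 with limma-voom, 359 and 608 with no filter, 15 and 67 with S1 thinned, and 3 to 383 and 50 to 613 when 1 library was left out. At 20 CPM 9 genes were 2-fold higher over ASO-Neg and 9 over mock, and at 5 CPM 30 were higher over mock. Leaving out a lane gave 11 to 16 higher and 32 to 36 lower over ASO-Neg, and 16 to 19 and 37 to 43 over mock. With siNegative in place of ASO-Neg, an alternative chosen after seeing the data, 75 genes were 2-fold lower, 30 of them shared with the 32. With the unstranded column the log2 ratios of ENSG00000234961 and ENSG00000269968 became 0. List medians moved by more than their SD over the 3 controls with library totals alone (fatty acid synthesis -0.29, cholesterol synthesis -0.01, sterol uptake -0.13, p53 targets 0.30, Wnt -0.08, mitochondrial transcripts -0.17), which shifted the median of all genes to 0.05. With DESeq2 size factors sterol uptake moved to -0.19. Over mock they were -0.29 for fatty acid synthesis, -0.19 for sterol uptake, 0.42 for AP-1 and YAP targets, 0.37 for ATF4 genes, 0.075 for NF-kB genes, 0.006 for G2/M, -0.24 for mitochondrial transcripts and -0.13 for pigment genes.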
